A study of Mus musculus with 10 samples.

Results

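The transcripts of 10 genes that bring calcium into smooth muscle cells, store it or answer it at the membrane were followed in cells sorted from the aorta of mouse embryos. The genes were Stimate, Stim1, Stim2, Orai1 and Orai3 of store-operated entry, Atp2a2, Pln and Itpr1 of the sarcoplasmic reticulum, and Cacna1c and Kcnmb1 of the surface membrane. They were taken by symbol, and all 10 were among the 28165 genes of the deposited table. The set was chosen by function with CPM and log2 fold changes of the genotype comparison known, among them the higher CPM of Stimate in Eln-/- libraries. Differences between genotypes in these 10 genes are therefore described without a test.

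The cells came from embryos of an intercross of Eln+/- mice that also carried Acta2-GFP, a green reporter driven by the Acta2 promoter. Embryos of day 15.5 gave 5 Eln-/- libraries and 5 Eln+/+ libraries, both with the reporter and without treatment. Cells positive for GFP and negative for CD31 (an endothelial surface protein) and for DAPI (a stain of dead cells) were sorted after collagenase digestion. Any CD31-negative living cell in which the Acta2 promoter is active could pass that sort. The labels do not give the Eln allele, nor how many embryos went into a library or whether replicates are separate embryos, so errors and p-values here measure the spread between libraries, which may be technical.

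Smooth muscle contracts when calcium in its cytoplasm activates myosin light chain kinase through calmodulin. The calcium enters through voltage-gated channels or leaves the sarcoplasmic reticulum through inositol trisphosphate receptors, and a pump returns it to the store. When the store runs low, STIM proteins in its membrane sense the loss and open ORAI channels in the surface membrane, which is called store-operated entry. Potassium channels that calcium opens hyperpolarise the membrane and so limit entry through voltage-gated channels.

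Total estimated counts were 28367780 to 56371507 in the Eln-/- libraries and 26951733 to 63866416 in the Eln+/+ libraries. Libraries Eln-/- replicates 4 and 5 and Eln+/+ replicate 1 stood apart, with 15089 to 15925 detected genes against 18157 to 22951 in the other 7. Scaling (TMM) factors were 0.486, 0.847 and 0.562 in Eln-/- replicates 4 and 5 and Eln+/+ replicate 1, against 1.13 to 1.37 in the others, and these raise CPM (counts scaled to a common library size) in the 3 libraries. Eln had 0 to 36 counts in Eln-/- libraries and 2409 to 105866 in Eln+/+ libraries, as the labels say. Of 9 smooth muscle markers, those above 1 CPM numbered 7 and 6 in Eln-/- replicates 4 and 5 and 7 in Eln+/+ replicate 1, and 9 in each of the other 7 libraries. Myh11, Smtn and Des had 1 count each in Eln-/- replicate 5, as Lmod1 and Des had in Eln-/- replicate 4, while Smtn and Des had 0 in Eln+/+ replicate 1. Acta2 was at 601 to 1742 CPM in Eln-/- and 473 to 1195 CPM in Eln+/+ libraries. Tagln, whose exons overlap Gm48529 and Pcsk7, was at 455 to 1452 CPM in Eln-/- and 129 to 643 CPM in Eln+/+ libraries, and Myh11, a defining marker, at 0.0377 to 119 CPM in Eln-/- and 1.47 to 34.5 CPM in Eln+/+ libraries. The summed level of the 9 smooth muscle markers was 1193 to 4008 CPM in Eln-/- and 1030 to 2503 CPM in Eln+/+ libraries. That of 8 fibroblast markers was 496 to 2703 CPM in Eln-/- and 1219 to 4049 CPM in Eln+/+ libraries. The part of fibroblasts in the levels of the calcium genes was not tested.

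Orai3 and Stimate were the most abundant genes of the set per length of exon and were found in all libraries, while each of the others spanned more than a factor of 10 over the libraries or was at 0 in some. Stimate was higher in every Eln-/- library than in any Eln+/+ library, and Pln was at 0 in 3 of the 5 Eln-/- libraries. Since a whole sorted population was sequenced, fewer cells of a type and less RNA per cell cannot be told apart. No gene of the 15718 tested passed edgeR's quasi-likelihood test between genotypes after Benjamini-Hochberg adjustment (0 at an adjusted p under 0.05, 0% of genes tested, 81 at an unadjusted p under 0.05). The smallest adjusted p of that edgeR test was 0.152. Eln itself, nearly absent from the Eln-/- libraries, was thus not called either, so the lack of a call does not show equal levels. DESeq2 called 6 genes and limma-voom 2. Of the 10, 9 had enough counts to enter the fit, and Cacna1c did not.

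**Figure D1:**
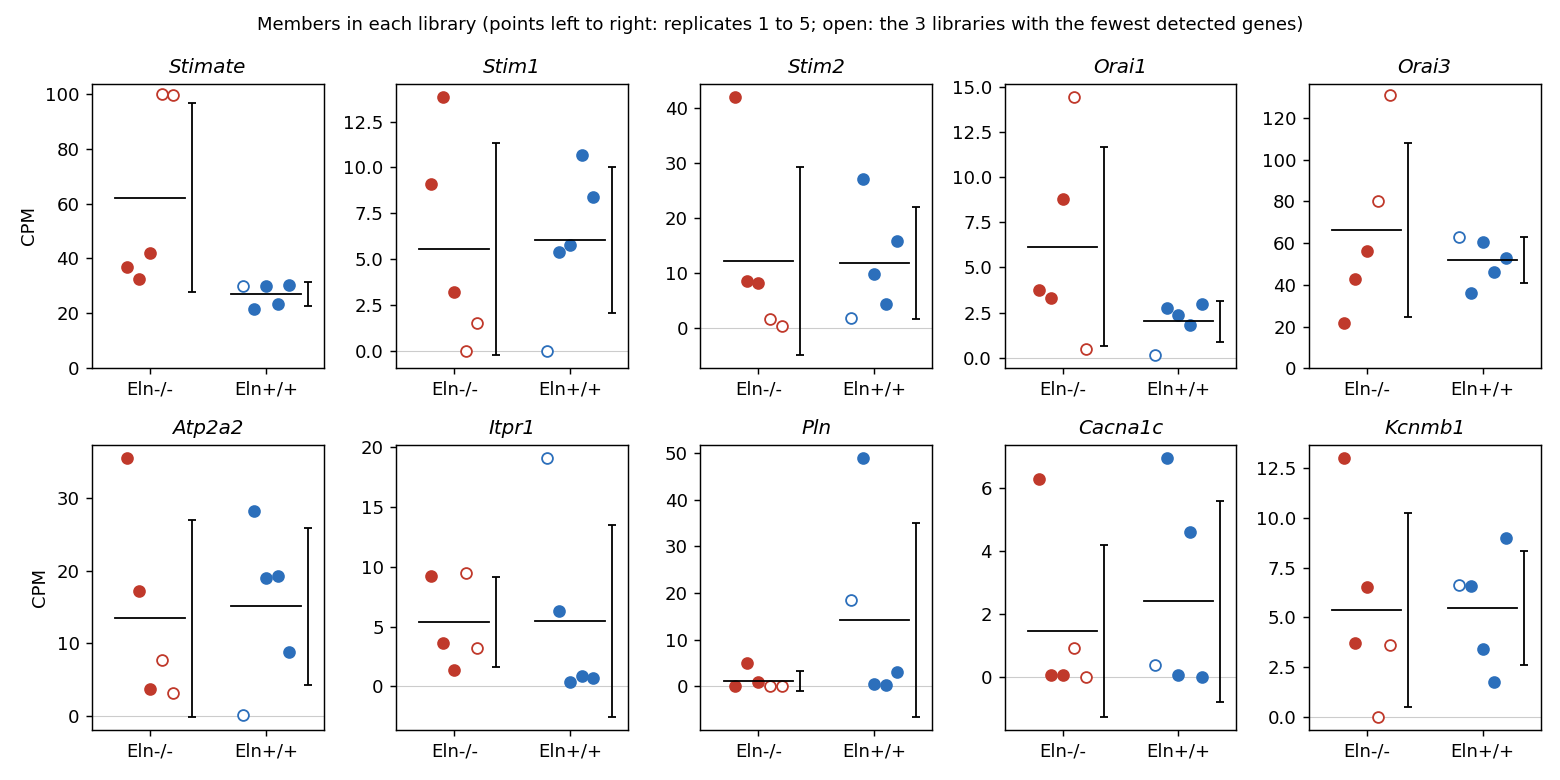
Each panel shows 1 gene in CPM on a linear axis, with Eln-/- libraries on the left and Eln+/+ libraries on the right, a line at the mean and a bar of 1 SD beside it (n = 5 each). Open points are the 3 libraries with the fewest detected genes. The Stimate points of the genotypes do not overlap (32.5 to 99.8 CPM in Eln-/- libraries, against 21.5 to 30.3 in Eln+/+ libraries), and those of the other 9 genes do.

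Stimate encodes a membrane protein of the endoplasmic reticulum that helps STIM1 change shape and reach the surface membrane. It lies on chromosome 14 from 30825590 to 30877210 on the plus strand (mm10), and no annotated exon of another gene overlaps its own. It was at 36.7, 32.5, 41.8, 99.8 and 99.6 CPM in Eln-/- replicates 1 to 5, against 29.9, 21.5, 30.1, 23.3 and 30.3 CPM in Eln+/+ replicates 1 to 5. The Eln-/- libraries thus fall into a group of 3 just above the Eln+/+ range and a pair far above it, and that pair has the fewest detected genes of the Eln-/- libraries. Means were 62.1 ± 34.5 CPM in Eln-/- libraries, against 27.0 ± 4.27 in Eln+/+ libraries (SD, n = 5 each), and the log2 fold change, Eln-/- over Eln+/+, was 1.20 (SE 0.46). Such a lack of overlap with Eln-/- higher was found for 22 of the genes tested, or 0.140%, and a lack of overlap in either direction for 0.305%. Without the 3 libraries, Stimate was at 37.0 ± 4.64 CPM in Eln-/- (n = 3) and 26.3 ± 4.56 CPM in Eln+/+ (n = 4), and the log2 fold change of Stimate was 0.52. With 3 libraries against 4, 2.21% of the genes tested were higher in Eln-/- with no overlap. Stimate was chosen with its higher level known, so these shares do not measure chance for it.

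Part of the distance of that pair came with the scaling. As CPM of total counts, with no TMM factor, Stimate was at 47.6, 42.8, 48.5, 48.4 and 84.2 in Eln-/- replicates 1 to 5 and at 16.8, 29.4, 34.5, 28.1 and 34.3 in Eln+/+ replicates 1 to 5. Eln-/- replicate 4 then sat with replicates 1 to 3, only replicate 5 stood out, and the genotypes still did not overlap. The log2 fold change of Stimate was 0.92 on that scale. Its neighbour Mustn1, a small nuclear protein of muscle and skeleton that begins just downstream on the same strand, is counted separately. Mustn1 was at 4.97, 4.80, 8.23, 9.88 and 0 CPM in Eln-/- replicates 1 to 5 and at 31.9, 2.98, 6.57, 5.32 and 2.72 CPM in Eln+/+ replicates 1 to 5, and its genotypes overlapped.

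Orai3, a channel subunit related to Orai1, was the only other member seen at more than 20 CPM in all 10 libraries. It lies on chromosome 7 from 127769815 to 127775150 on the plus strand. Orai3 was at 21.7, 42.8, 56.1, 80.0 and 131 CPM in Eln-/- replicates 1 to 5 and at 62.7, 35.9, 60.7, 46.1 and 53.1 CPM in Eln+/+ replicates 1 to 5. The Eln+/+ values sat inside the wider Eln-/- range. Its log2 fold change was 0.36 (SE 0.49), and -0.26 without the 3 libraries that stood apart, which include the highest Eln-/- values, those of replicates 4 and 5. As a measure of spread, the coefficient of variation of CPM over the 10 libraries was 50.7% for Orai3, higher than for 20.2% of the genes tested, 66.5% for Stimate, higher than for 37.9%, and 69.4% for Kcnmb1, higher than for 41.1%, against a median of 78.0% over all genes tested.

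Sequence before the start of these abundant genes is printed beside that of Pln, the member that varied most, as a description. The 250 bases upstream of each RefSeq start (GRCm38.p6, plus strand) were searched on both strands for GGGCGG (the GC box), TATAAA (the TATA box), GGAAAA (a core that NFAT factors can bind) and the CArG box of serum response factor, with overlapping matches counted apart. Capitals mark the matches.
Stimate, chr14:30825344-30825593: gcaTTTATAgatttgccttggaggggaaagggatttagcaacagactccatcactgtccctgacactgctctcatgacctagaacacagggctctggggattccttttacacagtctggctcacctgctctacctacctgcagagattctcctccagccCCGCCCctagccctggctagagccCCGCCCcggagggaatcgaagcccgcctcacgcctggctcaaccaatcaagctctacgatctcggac
Orai3, chr7:127769565-127769814: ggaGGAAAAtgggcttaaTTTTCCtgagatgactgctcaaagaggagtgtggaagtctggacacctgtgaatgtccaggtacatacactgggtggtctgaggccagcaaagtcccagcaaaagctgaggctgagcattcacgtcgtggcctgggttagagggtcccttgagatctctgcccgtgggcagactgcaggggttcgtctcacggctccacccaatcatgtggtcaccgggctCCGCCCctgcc
Pln, chr10:53337436-53337685: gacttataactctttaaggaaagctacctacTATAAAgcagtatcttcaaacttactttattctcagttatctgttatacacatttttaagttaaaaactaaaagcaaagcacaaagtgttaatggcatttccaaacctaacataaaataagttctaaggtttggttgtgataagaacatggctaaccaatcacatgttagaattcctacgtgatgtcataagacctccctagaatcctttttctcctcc
Stimate holds 2 GC boxes, which begin 91 and 67 bases before the start, and 1 TATAAA match on the other strand far upstream. Orai3 holds 1 GC box 11 bases before the start and 2 GGAAAA matches. Pln holds no GC box and 1 TATAAA match 219 bases before the start, with a GC content of 32.8% against 56.8% in Stimate and 57.2% in Orai3. Over all 32851 windows of this length, 32.7% held a GC box, 12.4% TATAAA, 20.4% GGAAAA and 1.47% a CArG box, and none of the windows of the 8 members listed in the RefSeq table held a CArG box. CG pairs numbered 31, 30 and 30 in the windows of Stim1, Stim2 and Orai1, 8 and 7 in those of Stimate and Orai3, and 1 each in those of Pln and Kcnmb1, with a median of 6 over all windows. The less abundant Stim1, Stim2 and Orai1 held 8, 3 and 3 GC boxes, at a GC content of 78.4%, 74.8% and 70.8%. Cacna1c, the lowest member, has several starts, whose windows held 0, 6 and 0 GC boxes and 2, 48 and 5 CG pairs. GC boxes were thus not particular to the abundant genes. The median GC content over all windows was 52.4%. A match of letters is a description and shows no binding.

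The sensors themselves were uneven. Stim1, which gates ORAI channels when the store is depleted (chromosome 7, 102267806 to 102437319, plus strand), was at 9.10, 13.9, 3.22, 0 and 1.55 CPM in Eln-/- replicates 1 to 5 and at 0, 5.38, 5.76, 10.7 and 8.40 CPM in Eln+/+ replicates 1 to 5. All 3 libraries with the fewest detected genes were lowest, and the other 7 overlapped between genotypes. A count of 0 allows up to 0.218 CPM in Eln-/- replicate 4 and 0.198 CPM in Eln+/+ replicate 1, for counting error only. The log2 fold change of Stim1 was -0.12 (SE 1.44), but -0.80 without Eln-/- replicate 2 and 0.20 without Eln-/- replicate 4. Stim2, a sensor that reacts to smaller losses of stored calcium (chromosome 5, 53998499 to 54121057, plus strand), was at 42.1, 8.51, 8.16, 1.60 and 0.264 CPM in Eln-/- replicates 1 to 5 and at 1.79, 27.1, 9.78, 4.32 and 15.9 CPM in Eln+/+ replicates 1 to 5. One library of each genotype was high, Eln-/- replicate 1 and Eln+/+ replicate 2. The log2 fold change of Stim2 was 0.04 (SE 1.13), and -1.35 without Eln-/- replicate 1.

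Orai1, the pore subunit of the classical store-operated channel, lies on chromosome 5 from 123015074 to 123030456 on the plus strand. It was at 3.74, 3.31, 8.78, 14.5 and 0.490 CPM in Eln-/- replicates 1 to 5 and at 0.132, 2.78, 2.37, 1.84 and 2.99 CPM in Eln+/+ replicates 1 to 5. Of the Eln-/- libraries, 4 were above every Eln+/+ library and replicate 5 was below all but Eln+/+ replicate 1. Means were 6.15 ± 5.52 CPM in Eln-/- libraries, against 2.02 ± 1.14 in Eln+/+ libraries (SD, n = 5 each), with a log2 fold change of 1.60 (SE 1.06), or 1.01 without Eln-/- replicate 4 and 1.09 when the 3 libraries that stood apart were left out. Among the 7 libraries that are left, Orai1 was at 3.31 to 8.78 CPM in Eln-/- libraries, against 1.84 to 2.99 in Eln+/+ libraries, with no overlap, as 2.21% of the genes tested were. A 7-base stretch of its exons is shared with the antisense gene Gm2479, which had 0 to 35 counts. Orai2, which completes the family, had 201, 93, 0, 0 and 0 counts in Eln-/- replicates 1 to 5, against 0, 62, 0, 78 and 2 counts for Eln+/+ replicates 1 to 5.

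In the store, the pump gene Atp2a2 (SERCA2, chromosome 5, 122453513 to 122502225, minus strand) was at 35.5, 17.1, 3.73, 7.70 and 3.17 CPM in Eln-/- replicates 1 to 5 and at 0.198, 28.2, 19.0, 19.2 and 8.80 CPM in Eln+/+ replicates 1 to 5. Each genotype spans more than a factor of 10, and Eln+/+ replicate 1 had 3 counts in all. The log2 fold change of Atp2a2 was -0.17 (SE 1.02), but -0.93 without Eln-/- replicate 1 and 0.19 without Eln+/+ replicate 2. Exons of Gm43361 on the other strand share 83 bases with it. Itpr1, an inositol trisphosphate receptor that releases stored calcium (chromosome 6, 108213096 to 108551109, plus strand), was at 9.24, 3.60, 1.36, 9.51 and 3.20 CPM in Eln-/- replicates 1 to 5 and at 19.1, 6.30, 0.386, 0.871 and 0.691 CPM in Eln+/+ replicates 1 to 5. The highest library of all was Eln+/+ replicate 1, where Stim1 had no counts and Atp2a2 had 3. Eln+/+ replicate 1 also held the most red blood cell transcripts, with a summed level of 8 erythroid markers of 18909 CPM. That sum was 22.3 to 5162 CPM in the Eln-/- libraries and 331 to 1361 CPM in Eln+/+ replicates 2 to 5, and its part in the Itpr1 value was not tested. Without Eln+/+ replicate 1 the log2 fold change of Itpr1 was 1.39, against -0.02 (SE 1.15) with all libraries.

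Pln encodes phospholamban, a small protein that restrains the SERCA2 pump until it is phosphorylated, and is abundant in heart muscle as well as present in smooth muscle. It lies on chromosome 10 from 53337667 to 53345987 on the plus strand. Pln was at 0, 4.95, 1.04, 0 and 0 CPM in Eln-/- replicates 1 to 5 and at 18.5, 48.9, 0.467, 0.348 and 3.19 CPM in Eln+/+ replicates 1 to 5. Eln+/+ replicates 1 and 2 were far above the rest, and the other 3 Eln+/+ libraries lay within the range of the Eln-/- libraries. Means were 1.20 ± 2.15 CPM in Eln-/- libraries, against 14.3 ± 20.8 in Eln+/+ libraries (SD, n = 5 each). The fitted log2 fold change of Pln was -3.56 (SE 2.03), -2.20 without Eln+/+ replicate 2 and -5.72 without Eln-/- replicate 2. Its coefficient of variation, 201%, was higher than for 99.2% of the genes tested. Exons of Cep85l on the other strand share 141 bases with those of Pln, and those of the gene model Gm47644, also on the other strand, share 1644. Without a known strand setting such reads cannot be assigned with certainty. Gm47644 had 0 to 57 counts in Eln-/- libraries and 0 to 129 in Eln+/+ libraries.

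Heart muscle markers varied along with Pln in part. All 18 cardiomyocyte markers of the list were in the table, and 7 to 18 of them were detected in the Eln-/- libraries and likewise in the Eln+/+ libraries. Their summed level was 188, 1169, 103, 797 and 166 CPM in Eln-/- replicates 1 to 5, against 778, 1275, 20.7, 107 and 268 CPM for Eln+/+ replicates 1 to 5. The highest 2 Pln libraries, Eln+/+ replicates 2 and 1, were among the 4 with a high sum. Eln-/- replicates 2 and 4 also had a high sum, yet Pln was at 4.95 and 0 CPM there. Markers above 1 CPM numbered 17 and 8 in Eln+/+ replicates 2 and 1, and 14 and 9 in Eln-/- replicates 2 and 4. In Eln+/+ replicate 1 Myl7 alone was at 475 CPM, and Tnnt2, Myh7, Myl2 and Casq2 were at 0. In Eln-/- replicate 4 Myl7 was at 361, Tnnc1 at 181 and Tnni1 at 112 CPM. There Nppa and Myl2 were at 5.74 and 3.34 CPM, Tnnt2 and Myh6 at 0.654 and 0.436 CPM, and Myh7, Casq2 and Actn2 at 0. The summed level of 9 skeletal muscle markers was 175 CPM in that library, the highest of all, and its part in the heart muscle sum was not tested. Myl7 and Actc1, a light chain and an actin of heart muscle, were found in all libraries, at 166 ± 206 and 87.3 ± 124 CPM in Eln-/- libraries, against 165 ± 211 and 115 ± 149 in Eln+/+ libraries. Of the more restricted markers, Nppa and Ryr2 were at 0 in 6 libraries each, Myh7 and Actn2 in 7 each and Myh6 in 4. The part of any heart muscle cells in the values of Pln, Atp2a2 and Cacna1c was not tested.

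**Figure D2:**
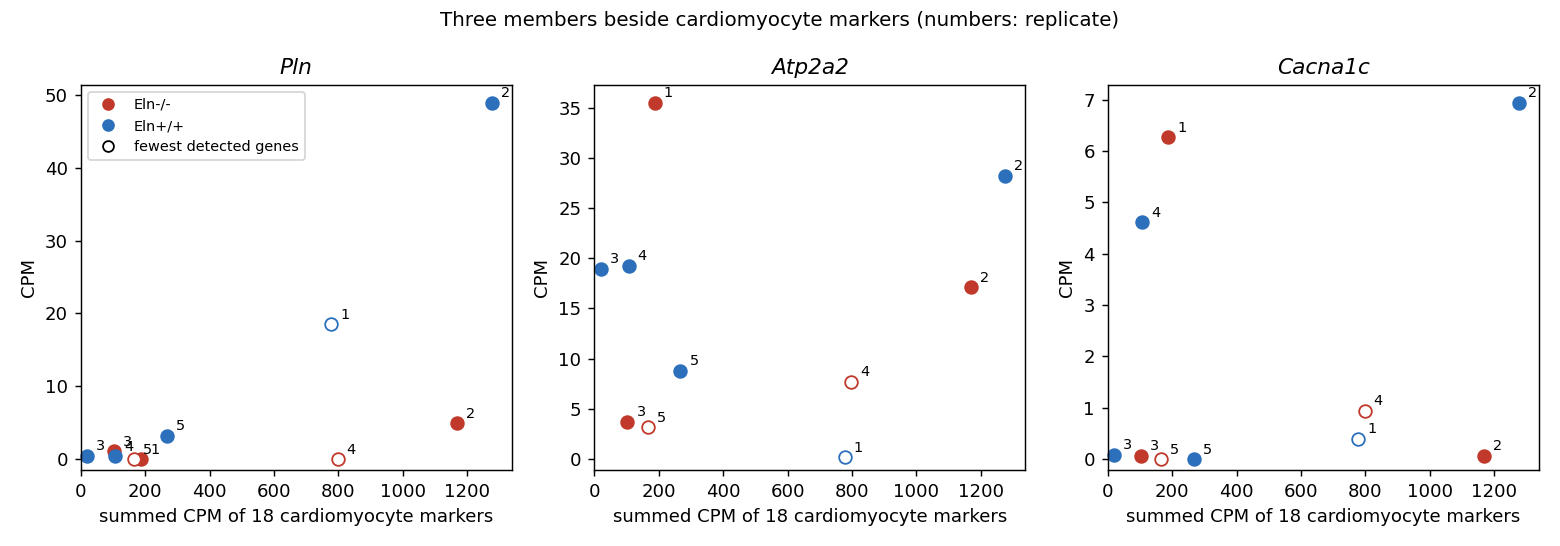
CPM of Pln, Atp2a2 and Cacna1c (vertical axes) is drawn against the summed CPM of 18 cardiomyocyte markers (horizontal axes) in the 10 libraries, numbered by replicate, with open points for the 3 libraries with the fewest detected genes. Eln+/+ replicate 2 is at the top right for Pln (48.9 CPM at a sum of 1275), while Eln-/- replicates 2 and 4 have a high sum with little Pln, and Eln-/- replicate 1 has the highest Atp2a2 (35.5 CPM) at a sum of 188.

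At the surface membrane, Cacna1c, the pore of the L-type calcium channel, was caught in few libraries. In the deposited table it spans chromosome 6 from 118587240 to 119196890 on the minus strand. Eln-/- replicates 1 to 5 held 458, 4, 3, 13 and 0 counts of Cacna1c, against 6, 605, 4, 291 and 0 counts for Eln+/+ replicates 1 to 5. So 3 libraries, Eln-/- replicate 1 and Eln+/+ replicates 2 and 4, held nearly all of its counts, at 6.27, 6.94 and 4.61 CPM, and the other 7 were at 0 to 0.944 CPM. Kcnmb1, the beta subunit that raises the calcium sensitivity of the large-conductance potassium channel in smooth muscle, lies on chromosome 11 from 33963013 to 33973641 on the plus strand. It was at 13.0, 3.69, 6.54, 0 and 3.62 CPM in Eln-/- replicates 1 to 5 and at 6.61, 6.60, 3.43, 1.76 and 8.98 CPM in Eln+/+ replicates 1 to 5. It was found in 9 libraries with overlapping ranges, and the log2 fold change of Kcnmb1 was -0.02 (SE 1.15), but -0.66 without Eln-/- replicate 1 and 0.30 without Eln-/- replicate 4.

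**Figure D3:**
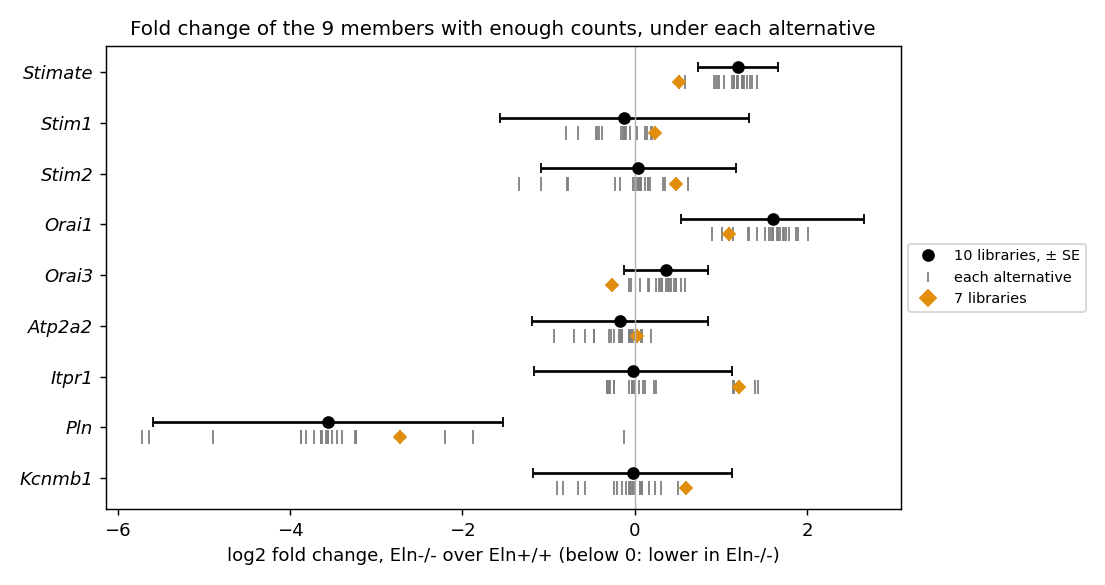
Log2 fold change, Eln-/- over Eln+/+ (horizontal axis), of the 9 genes in the fit, with the value from all 10 libraries (black, bar of 1 SE), each of 23 alternatives (grey ticks) and the value from 7 libraries (orange). The values of Stimate and Orai1 stay above 0 and those of Pln below 0 under each alternative, while those of the other 6 lie on both sides of 0.

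The sign of the fold change turned in at least 1 of 23 alternatives for 6 of the 9 genes, in 11 for Itpr1, 10 for Kcnmb1, 8 for Stim2, 7 for Stim1, 4 for Atp2a2 and 3 for Orai3. The range was 0.52 to 1.42 for Stimate, 0.89 to 2.01 for Orai1 and -5.72 to -0.12 for Pln. The median log2 fold change of the 9 genes was -0.02, beside 0.02 over all genes tested, with 4 above 0 and 5 below. Without the 3 libraries that stood apart, 7 of the 10 were above 0. These ranges are a description, with no test of the members.

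Levels of different genes were compared per kilobase of exon (the union of a gene's annotated exons). Orai3 led with a median of 25.5 CPM per kilobase over the 10 libraries and was above Stimate, at 7.20, in 10 of 10 libraries. Stimate in turn was above Atp2a2, at 2.13, in 10 of 10. Below these the order was not stable. Atp2a2 was above Stim2 (1.62) in 5 of 10 libraries, Stim2 above Orai1 (1.26) in 7, Orai1 above Kcnmb1 (1.22) in 5, Kcnmb1 above Stim1 (0.537) in 7 and Stim1 above Pln (0.274) in 4. Pln was above Itpr1 (0.186) in 7 and Itpr1 above Cacna1c (0.0113) in 9. Pln ranged from 0 to 17.7 CPM per kilobase and was the highest of the 10 genes in Eln+/+ replicate 2, where Orai3 came after it, while Orai3 was highest in the other 9 libraries. With the length of the longest transcript, and without the 3 libraries, Orai3, Stimate, Atp2a2 and Stim2 kept ranks 1 to 4.

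**Figure D4:**
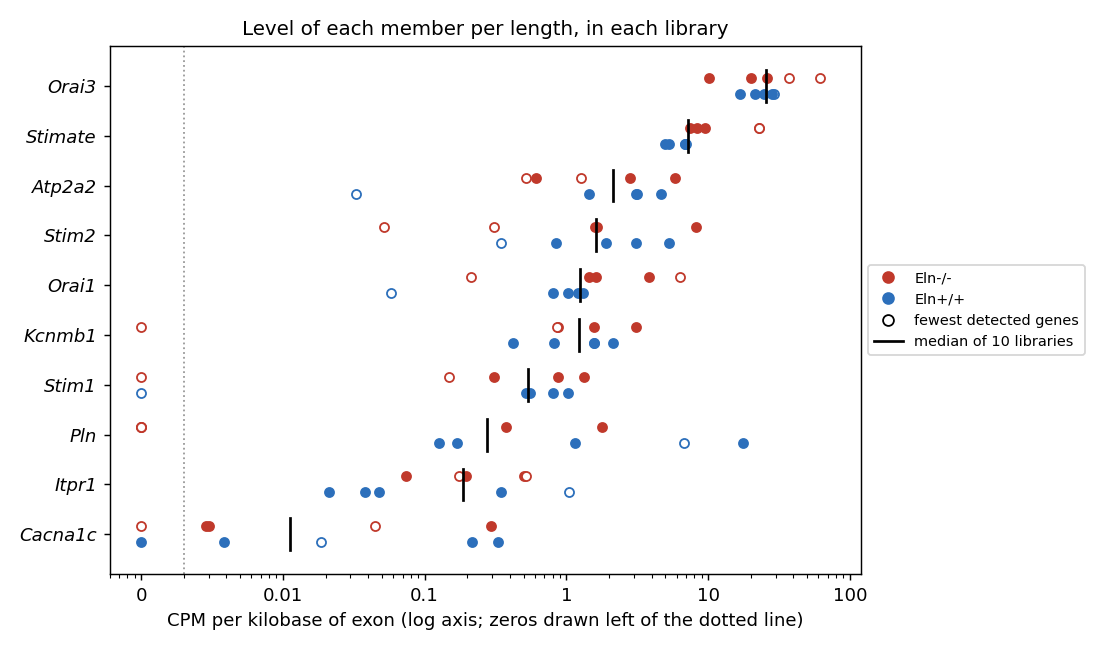
Level of each gene in CPM per kilobase of exon (log axis, zeros left of the dotted line) in each library, Eln-/- above Eln+/+ in each row, ordered by the median of 10 libraries (black line). Orai3 (10.1 to 61.2) and Stimate (4.93 to 22.9) are compact, and the genes below them spread over factors of 10 or more.

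Levels of related or partner genes were compared in 8 pairs, by the log2 ratio of CPM per kilobase within a library over all 10 libraries. The genes were chosen with their CPM known, so these ratios are a description with no test. Stimate was above Stim1 in 10 of 10 libraries by 5.35 ± 3.62 on the log2 scale (SD), and the mean ratio of Stimate over Stim1 was 4.29 with the length of the longest transcript and 3.29 without the 3 libraries that stood apart. Orai1 was below Orai3 in 10 of 10 by a log2 ratio of -4.59 ± 2.13. Atp2a2 was above Atp2a3, the SERCA3 pump of other cell types, in 10 of 10 by 6.20 ± 2.82. Kcnmb1 was above Kcnma1, the pore subunit it accompanies, in each of the 9 libraries with counts of either gene. In Eln-/- replicate 4 neither had any, and without that library the mean ratio was 6.95, against 6.45 ± 2.81 with all 10. Kcnma1 and Atp2a3 each had no counts in 6 of the 10 libraries, and where 1 gene of a pair is at 0, the size of a ratio depends on the prior count of 2. In Eln+/+ replicate 1 Atp2a2 had 3 counts and Atp2a3 had 0.

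Stim1 was below Stim2 in 8 of 10 libraries, with a log2 ratio of -2.41 ± 2.58. With the length of the longest transcript it was -1.22, since the exons of Stim1 add up to 10371 bases and its longest transcript to 4362, and without the 3 libraries that stood apart it was -1.81. The other 3 pairs had means smaller than their SD. Pln over Atp2a2 had a log2 ratio of -2.10 ± 4.64 and lay between -8.61 (Eln-/- replicate 1) and 7.42 (Eln+/+ replicate 1), with means of -4.29 ± 3.55 in Eln-/- and 0.09 ± 4.89 in Eln+/+ (SD, n = 5 each). The mean was -3.16 without Eln+/+ replicate 1 and -1.38 without Eln-/- replicate 1. Itpr1 was above its relative Itpr2 in 8 of 10 libraries, by 1.45 ± 3.05. The mean of Itpr1 over Itpr2 was 0.66 without Eln+/+ replicate 1, 1.98 without Eln+/+ replicate 5 and 0.34 without the 3 libraries that stood apart. Cacna1c over Cacna1d, another L-type pore, was at -0.31 ± 4.60, with no counts of either gene in Eln-/- replicate 5. Exons of Cacna1d and of Kcnma1 overlap those of Chdh and 4930519K11Rik on the other strand.

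**Figure D5:**
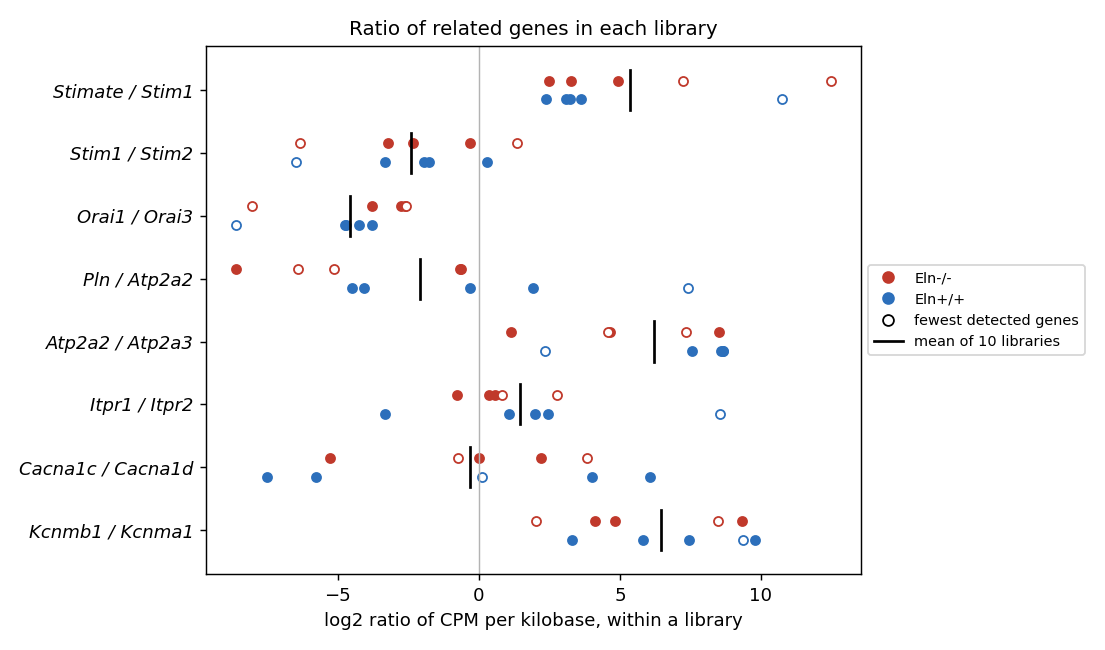
Log2 ratio of CPM per kilobase of 8 gene pairs within each library (horizontal axis), Eln-/- libraries above Eln+/+ libraries in each row, with the mean of 10 as a black line. Stimate over Stim1, Atp2a2 over Atp2a3 and Kcnmb1 over Kcnma1 lie right of 0 in each library (for Kcnmb1 over Kcnma1 with no counts of either in Eln-/- replicate 4) and Orai1 over Orai3 left of it, while Pln over Atp2a2 runs from -8.61 to 7.42.

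All 10 genes reached 1 CPM only in Eln+/+ replicate 2, and 6 did in each of the 3 libraries that stood apart. At 1 CPM or more there were 9, 9, 9, 6 and 6 of the 10 genes in Eln-/- replicates 1 to 5, against 6, 10, 7, 8 and 8 genes for Eln+/+ replicates 1 to 5. Stimate and Orai3 made up 32.9%, 57.7%, 74.9%, 84.0% and 94.9% of the summed CPM of the 10 genes in Eln-/- replicates 1 to 5, against 66.4%, 30.3%, 68.8%, 61.4% and 63.0% for Eln+/+ replicates 1 to 5. The lowest shares, in Eln-/- replicate 1 and Eln+/+ replicate 2, belong to the libraries with the most counts, 56371507 and 63866416.

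Other genes of calcium handling gave no call. The 6 lists, with 131 genes, were drawn up by function, but with earlier results of these data known. Of these genes 96 were tested, and 0 were higher and 0 lower at an adjusted p under 0.05 (edgeR). At an unadjusted p under 0.05 there were 2, and DESeq2 and limma-voom called none. The median log2 fold change of the 96 genes was -0.10, with 42 above 0 and 54 below. By list, 11 other genes of store-operated entry had a median of 0.02, 24 other store genes -0.09, 7 other subunits of voltage-gated calcium channels -0.23, 15 other channels -0.31, 13 genes of extrusion and mitochondrial uptake -0.10 and 26 genes of calcium sensing and calcineurin -0.04.

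The most abundant genes of each list are given first. In the entry list, Septin7, a cytoskeletal protein, was at 301 ± 235 CPM in Eln-/- libraries, against 404 ± 236 in Eln+/+ libraries. Tmco1, a calcium leak channel of the endoplasmic reticulum, was at 195 ± 120 CPM in Eln-/- libraries, against 201 ± 134 in Eln+/+ libraries. In the store list the chaperones Hspa5 and Pdia3 were at 1112 ± 1450 and 905 ± 644 CPM in Eln-/- libraries, against 989 ± 616 and 1003 ± 511 in Eln+/+ libraries. In the sensing list, the calmodulin gene Calm2 was at 1129 ± 415 CPM in Eln-/- libraries, against 1227 ± 654 in Eln+/+ libraries. Levels differed between genotypes by less than the spread between libraries in each of these. Exons of Septin7 and Pdia3 overlap those of Gm48272 and Catsper2.

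Among other channels, Kcnj8, the pore of the vascular ATP-sensitive potassium channel, was at 123 ± 80.7 CPM in Eln-/- libraries, against 152 ± 73.7 in Eln+/+ libraries. Kcne4, a potassium channel beta subunit, was at 98.7 ± 49.7 CPM in Eln-/- libraries, against 89.8 ± 39.9 in Eln+/+ libraries. The auxiliary subunits Cacnb3 and Cacna2d1 of calcium channels were at 13.4 ± 14.9 and 8.35 ± 7.61 CPM in Eln-/- libraries, against 21.0 ± 16.5 and 13.2 ± 16.1 in Eln+/+ libraries. Smdt1, a subunit of the mitochondrial calcium uniporter, was at 305 ± 248 CPM in Eln-/- libraries, against 277 ± 258 in Eln+/+ libraries, and its exons overlap those of Pheta2. The outer membrane channel Vdac1 was at 163 ± 61.0 CPM in Eln-/- libraries, against 175 ± 75.0 in Eln+/+ libraries.

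The smallest p of each list belonged to Trpc1, Fkbp1b, Cacnb4, Pkd1, Atp2b1 and Camkk2. These genes were picked by that p, so it is no independent support for a difference. Pkd1, a large membrane protein of cilia and mechanosensing, was at 20.6, 6.97, 9.21, 0.218 and 2.71 CPM in Eln-/- replicates 1 to 5 and at 0.198, 1.93, 0.0609, 1.30 and 1.96 CPM in Eln+/+ replicates 1 to 5. All Eln-/- libraries but replicate 4 were above every Eln+/+ library, with a log2 fold change of Pkd1 of 2.86 (SE 1.28, edgeR unadjusted p = 0.0455, adjusted p = 1.00). Exons of Tsc2 share 693 bases with those of Pkd1. Cacnb4, a calcium channel subunit, had 83, 27, 12, 6 and 152 counts in Eln-/- replicates 1 to 5 and 4 to 17 in Eln+/+ libraries, and its log2 fold change was 2.59 (SE 1.10, edgeR unadjusted p = 0.0377, adjusted p = 1.00). Without Eln-/- replicate 5, which was at 5.73 CPM, the log2 fold change of Cacnb4 was 1.09. Exons of A430018G15Rik share 1433 bases with those of Cacnb4. Camkk2, a kinase that calmodulin activates, was at 13.9 ± 5.99 CPM in Eln-/- libraries, against 7.03 ± 4.49 in Eln+/+ libraries. Fkbp1b, which binds calcium release channels, was at 24.8 ± 15.6 CPM in Eln-/- libraries, against 14.7 ± 4.70 in Eln+/+ libraries. Trpc1, a cation channel, was at 4.03 ± 3.22 CPM in Eln-/- libraries, against 1.42 ± 1.55 in Eln+/+ libraries, and Atp2b1, a calcium pump of the surface membrane, at 32.6 ± 44.8 CPM in Eln-/- libraries, against 55.9 ± 40.1 in Eln+/+ libraries. None of these passed the threshold.

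For each gene in the fit, the gene with the most similar course over the 10 libraries was sought, by the mean absolute difference of log2 CPM after centring. Candidates were tested genes with a mean log2 CPM of at least 2 and no predicted gene model name, so genes of low level were left out. Of 7801 genes, Nkiras1 (0.21), Ndfip2 (0.25) and Hacd2 (0.27) came closest to Stimate, where the median gene was 1.20 away. Sumo3 was closest to Orai3, at 0.09. The nearest to Stim1 was Zdhhc7 at 0.38, to Stim2 Nfia at 0.51, to Orai1 Wrnip1 at 0.70, to Atp2a2 Cdca2 at 0.37, to Itpr1 Idua at 0.60 and to Kcnmb1 Tank at 0.46. The nearest candidate to Pln, Trdmt1, was 1.98 away, so no candidate followed its course closely. These distances include what the libraries share in depth and detection.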

How the data were processed

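Messenger RNA of sorted aortic cells was sequenced in 10 libraries, 5 per genotype, made with a low-input kit per the labels' protocols. The authors deposited 1 table of estimated counts per gene, not scaled for library size. Per the submitters' processing notes, STAR, DESeq2 and the build mm10 were used. The sources used here do not give the counting program, annotation or strand setting. Each column carries a sample name, which the labels tie to a library. Between 23.5% and 48.8% of values in a library were not whole (tolerance 1e-06), and counts were rounded. The stop coordinates of the table lie 1 base past the gene, and after this correction 99.0% of spans equalled those of GENCODE M21, which gave exon lengths and overlaps.

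Genes were kept with edgeR's filterByExpr (15718), scaled with TMM and tested with glmQLFit and glmQLFTest on genotype alone, with Benjamini-Hochberg adjustment at 0.05. Each SE is the absolute log2 fold change over the square root of F. Log2 levels used a prior count of 2. A sign-flip test planned for ratios between genes is not given, since the genes were chosen with their levels known. Analyses ran in R 4.3.3 with DESeq2 1.42.0, edgeR 4.0.16 and limma 3.58.1. The edgeR fit and the sign-flip test were tried on simulated data, and the other procedures were not. Where a bound is given for a count of 0, it is the CPM of 3 counts, and zeros stayed 0 in means and SDs of CPM. In Eln-/- libraries 1 CPM was worth 13.8 to 73.0 counts, and in Eln+/+ libraries 15.1 to 87.2.

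The 10 genes and all lists were chosen with earlier results of these data known. Named genes were the 10, Eln, Acta2, the second gene of each pair, from each calcium list the 2 most abundant and the 1 with the smallest p, the 2 most abundant cardiomyocyte and smooth muscle markers each and the nearest gene by course (3 for Stimate) with a mean log2 CPM of at least 2 and no predicted gene model name. Mustn1, Orai2, Myh11, Smtn, Lmod1, Des, further cardiomyocyte markers and overlapping genes were added after their values were seen. One gene that this rule takes is not reported here. Alternatives were other scalings, filters and tools, a replicate block, and libraries left out, 23 in all.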

Additional observations from a re-analysis of the deposited data

Results flagged for a closer look

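In 3 of 20 groups of 5 libraries, the highest library stood apart from the next by more than Dixon's 95% limit. That limit flags about 1 group in 20 for independent groups of normal values. CPM here is skewed with zeros and the groups share libraries, so the share that chance flags is not known. All 3 groups were Eln-/-. Stim2 was at 42.1 CPM in Eln-/- replicate 1, and the next Eln-/- library was at 8.51 CPM. Cacna1c was at 6.27 CPM in Eln-/- replicate 1, and the next was at 0.944 CPM. Pln was at 4.95 CPM in Eln-/- replicate 2, and the next was at 1.04 CPM. Eln-/- replicate 1 had the most detected genes of all libraries, 22951. The part of detection or depth in these values was not tested.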

How the results depend on the processing

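The count of genes called between genotypes was 0 with edgeR at TMM scaling and at RLE, upper-quartile or no scaling, under both other filters, without the ribosomal RNA gene model, with the replicate block and when the 3 libraries with fewest detected genes were left out. It was 6 with DESeq2, 28 with DESeq2 on all genes, 2 with limma-voom, 7 with quality weights, 1 without Eln+/+ replicate 2 and Eln-/- replicate 1 together, and 0 to 1 when 1 library was left out. No calcium gene of the 6 lists outside the members was called in any of these. Nothing in the labels says whether replicate numbers pair the libraries. The deviations of same-numbered libraries correlated at -0.56 to 0.51, and 1 of 5 Eln-/- libraries correlated best with its own number. So few correlations cannot decide whether the libraries share a litter or preparation. With the replicate block the log2 fold change of Itpr1 was 1.15 and of Pln -5.64.

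Members above 0 numbered 4 of 9 with all libraries, 7 of 10 without the 3 libraries, and 3 to 7 when 1 library was left out. The log2 fold change of Pln nearest to 0, -0.12, came with quality weights, which also gave 0.58 for Stimate. Mean log2 ratios that moved were Stimate over Stim1 (4.29 with the longest transcript, 3.29 without the 3 libraries), Stim1 over Stim2 (-1.22 and -1.81), Itpr1 over Itpr2 (0.34 without the 3 libraries) and, with 1 library left out, Cacna1c over Cacna1d (-1.02 to 0.49), Pln over Atp2a2 (-3.16 to -1.38) and Itpr1 over Itpr2 (0.66 to 1.98). Each genotype alone moved no ratio by more than 1 SD.

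Among the other calcium genes named, the sign of the log2 fold change turned for Tmco1 (0.0228 with upper-quartile scaling and 0.0246 with the replicate block), Vdac1 (0.0198 with upper-quartile scaling, 0.0405 with quality weights, 0.0103 without Eln+/+ replicate 2 and Eln-/- replicate 1), Hspa5 (-0.51 with limma-voom, -0.33 with quality weights, -1.05 with the replicate block, -0.86 without that pair of libraries) and Cacna2d1 (0.93 with limma-voom). It also turned for Trpc1 (-0.28), Kcne4 (-0.10) and Calm2 (0.0290) with quality weights, for Kcne4 (-0.18) without that pair, and for Pdia3 (0.14) and Smdt1 (-0.18) without the 3 libraries. With 1 library left out it turned for Cacna2d1 (-1.41 to 0.19), Calm2 (-0.34 to 0.26), Hspa5 (-1.02 to 0.48), Kcne4 (-0.0798 to 0.39), Kcnj8 (-0.57 to 0.0239), Pdia3 (-0.52 to 0.16), Smdt1 (-0.41 to 0.93), Tmco1 (-0.32 to 0.48) and Vdac1 (-0.32 to 0.11). The cause of these changes was not tested. All members but Stimate and Orai3 had under 20 counts in at least 1 library. The lack of a call for a gene does not show equal levels, and the part of depth and spread in it was not tested.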
